A study of Mus musculus with 12 samples.

Results

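The genes described here encode the actin cytoskeleton of BV2 mouse microglial cells and the proteins that tie it to the plasma membrane. They are a list of 46 gene symbols, set by name and role, among the 21834 genes of the count table. All 46 were found, and 45 reached 0.5 CPM (counts scaled to a common library total) in at least 3 libraries, as did 11626 genes in all. The remaining member, Fscn1, which encodes the bundling protein fascin, stayed between 0 and 0.469 CPM and was not tested. The 45 tested members include the cytoplasmic actins, monomer-binding proteins, membrane linkers, the Arp2/3 complex with its activators, capping and severing proteins, coronins, crosslinkers, adhesion-site proteins, tropomyosins, non-muscle myosin II and vimentin.

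BV2 is an immortalized mouse microglial line. One stable line carried a control shRNA (shCtrl) and one carried an shRNA against Anxa2 (shAnxa2), both made by lentiviral infection and puromycin selection, so the vector and its selection are common to all 4 groups. Each line was left untreated (CTRL) or taken through oxygen-glucose deprivation and reoxygenation (OGD/R), a culture model of ischemia and reperfusion that the labels give as 4 h of deprivation and 12 h of reoxygenation, while the study's methods for BV2 cells give a longer reoxygenation. RNA was sequenced in 3 libraries per group, 12 in all, to ask how Anxa2 depletion alters the response to OGD/R. With 1 line and 1 shRNA per arm, an effect of Anxa2 loss and a difference between these 2 lines cannot be told apart.

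Actin cycles between monomers and filaments. Profilin and thymosins hold monomers, cofilin and gelsolin cut or disassemble filaments, and the Arp2/3 complex starts new branches when proteins of the WASP and WAVE families activate it. Crosslinkers, tropomyosins and myosin II turn filaments into contractile bundles that end at adhesion sites, and the ezrin, radixin and moesin proteins anchor the cortex to the membrane. Annexin A2 binds acidic membrane lipids and actin, and forms a complex with S100a10 that recruits the giant scaffold protein Ahnak. Microglia use this machinery to extend processes, migrate and engulf.

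Library totals ranged from 19521877 to 27288843 counts, and the 46 genes took 2.28% to 2.74% of each. All 8 microglial and macrophage markers passed the filter on low counts, with summed levels of 1487 to 1870 CPM. Markers of neurons and fibroblasts summed to at most 0.755 and 0.376 CPM, those of astrocytes to at most 0.969 CPM and those of endothelium to at most 2.19 CPM, while the oligodendrocyte list, of which 2 of 4 genes passed the filter, summed to 4.08 to 6.61 CPM. In bulk RNA, fewer cells with a transcript and less of it per cell cannot be told apart.

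Anxa2 (ENSMUSG00000032231), the knockdown target, was at 165, 174 and 177 CPM in the shCtrl-CTRL libraries and at 251, 295 and 291 CPM in the shCtrl-OGDR libraries. It was at 35.0, 44.4 and 41.8 CPM in shAnxa2-CTRL and at 18.2, 20.1 and 20.6 CPM in shAnxa2-OGDR. The 2 lines did not overlap, and the mean of the untreated and OGD/R line differences was -2.96 ± 0.053 on the log2 scale (SE, adjusted p = 9.82e-23). Fold changes, standard errors and adjusted p-values here come from quasi-likelihood tests in edgeR on 3 libraries per group, and the adjustment is that of Benjamini and Hochberg over the 11626 genes. With 3 libraries against 3, an exact two-sided permutation test of 1 gene cannot go below p = 0.1, the value it gave for Anxa2 in each treatment.

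Most hypoxia targets went opposite ways by label in the 2 lines. Of 9 listed, Slc2a1 was not called in shCtrl (-0.02, adjusted p = 0.832 in edgeR) and Adm was not tested. The others, apart from Egln3, were called in opposite directions. Egln3 passed the filter on low counts only through the shCtrl-OGDR libraries, at 1.02 to 1.74 CPM, so its levels are given with no test. It was at 0.167 to 0.330 CPM in shCtrl-CTRL, at 0.433 to 0.596 CPM in shAnxa2-CTRL and at 0.051 to 0.097 CPM in shAnxa2-OGDR. Summed over 9 hypoxia target genes, the shCtrl libraries stood at 3588 to 3854 CPM without treatment and at 4681 to 5215 CPM after OGD/R, and the order was the opposite in the shAnxa2 line, with 4895 to 5143 CPM in the libraries labelled CTRL and 3359 to 3426 CPM in those labelled OGDR. Ldha and Pgk1 held most of this sum, with means of 2056 and 1213 CPM in shCtrl-CTRL. Ndrg1, a hypoxia-induced gene, was at 9.27 to 11.7 CPM in shCtrl-CTRL, at 63.6 to 78.7 CPM in shCtrl-OGDR, at 47.7 to 49.7 CPM in shAnxa2-CTRL and at 6.99 to 9.65 CPM in shAnxa2-OGDR. Over the 11626 genes, the smallest mean distance between different groups (root mean square difference of log2(CPM + 0.1)) was that of shCtrl-CTRL and shAnxa2-OGDR, at 0.416, followed by that of shCtrl-OGDR and shAnxa2-CTRL, at 0.453. Over the 45 members these distances were 0.404 and 0.408, the 2 shAnxa2 groups lay nearest to each other at 0.373, and shCtrl-OGDR and shAnxa2-OGDR lay farthest apart at 0.650. Libraries are named below by their labels, so "OGD/R in shAnxa2" means the libraries labelled OGDR against those labelled CTRL in that line. Whether the treatment labels of the shAnxa2 libraries were exchanged was not tested. With those labels read the other way, each value of OGD/R in shAnxa2 would change sign and each interaction would become the negative of the sum of both OGD/R effects. Line differences named untreated would then compare shAnxa2-OGDR with shCtrl-CTRL. Those named after OGD/R would compare shAnxa2-CTRL with shCtrl-OGDR. The mean of the 2 line differences has the same value whichever way the treatment labels of a line are read.

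Among the members, Actb had by far the highest level per length, 2347 CPM per kilobase of annotated exons on average over the 12 libraries. Cfl1 (cofilin) followed at 580, Tmsb4x (thymosin beta 4) at 349 and Pfn1 (profilin) at 317 CPM per kilobase, and Capg, Arpc1b, Arpc2 and Gsn lay between 206 and 225. At the low end of the tested members were Tmsb10 at 3.63, Zyx at 4.94, Ahnak at 10.4 and Vcl at 10.8 CPM per kilobase. Actg1, the second cytoplasmic actin, stood at 65.6 CPM per kilobase.

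In the shCtrl line, OGD/R was followed by lower levels of most members. Of 45 members, 25 fell and 8 rose at an adjusted p under 0.05, beside 31.0% of all genes tested that fell and 32.4% that rose, and the median log2 fold change was -0.14 for members and 0.00 for all genes. Of the shAnxa2 libraries, those labelled OGDR were higher than those labelled CTRL for 15 members and lower for 13, beside 28.2% and 26.8% of all genes, with a median of 0.00 in both sets. Members called in both lines numbered 23. Of these, 15 were lower in shCtrl and higher in shAnxa2, 7 were higher in shCtrl and lower in shAnxa2, and Tpm4 was lower in both. That makes 95.7% with opposite signs, beside 98.6% of the 5239 genes called in both lines, so opposite signs were not particular to the members. The plot of OGD/R effects by role shows both lines side by side.

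**Figure D1:**
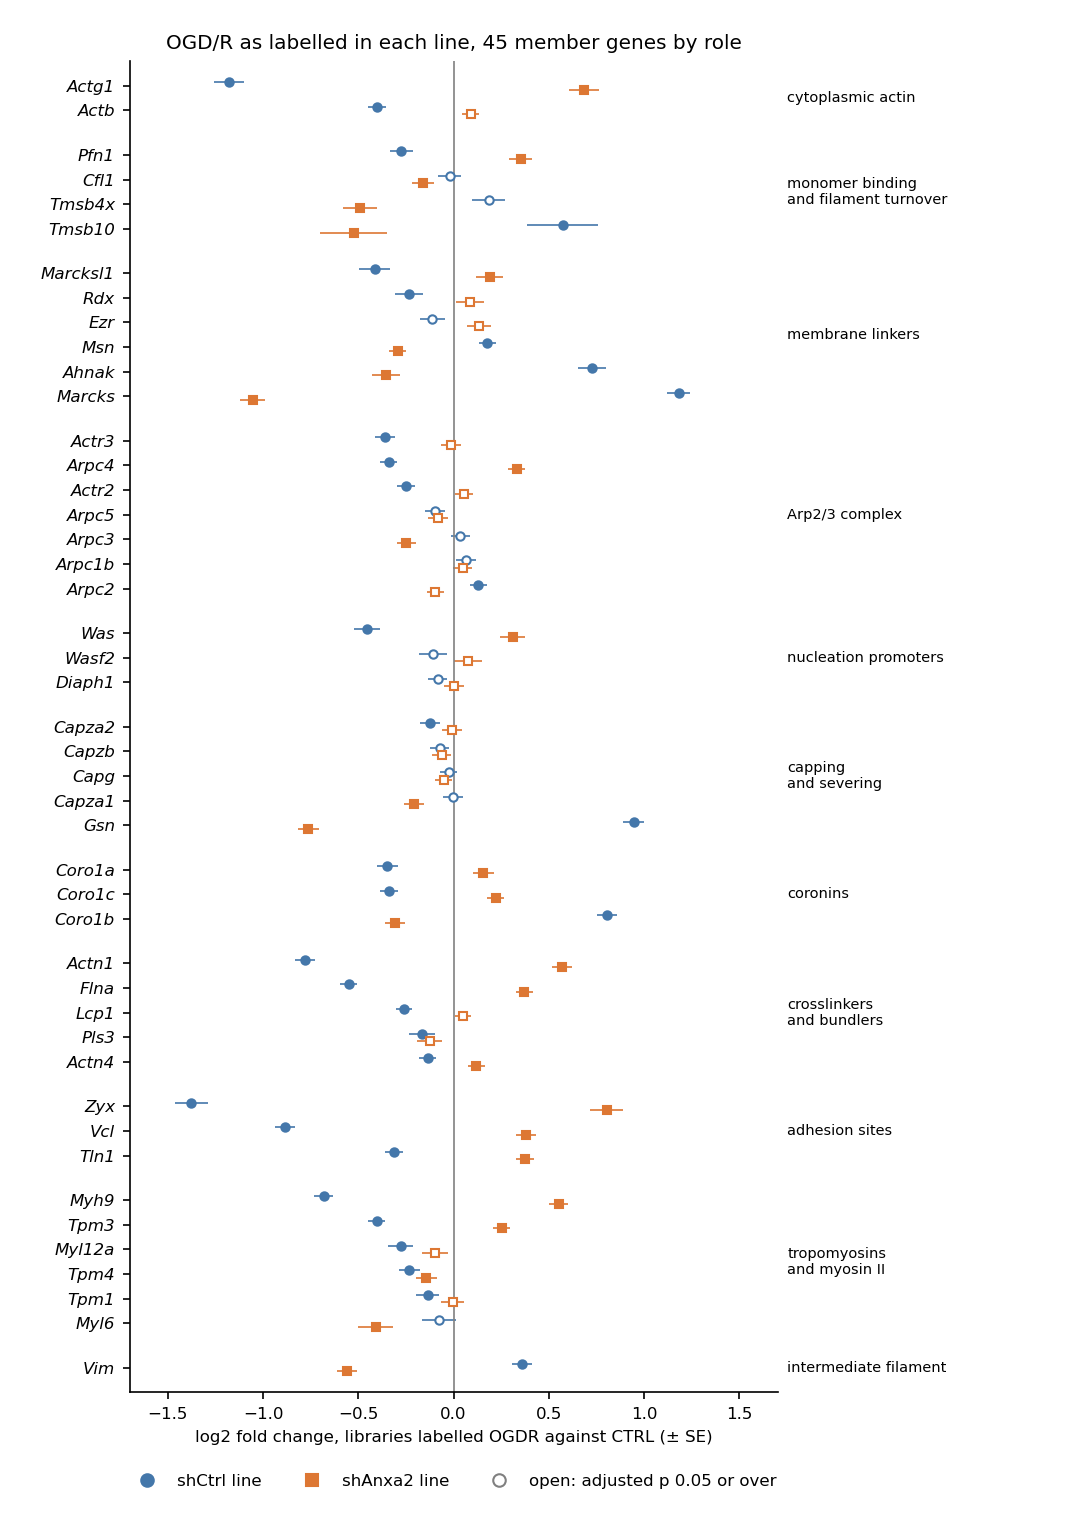
OGD/R effect on 45 actin and membrane linker genes, grouped by role. The x axis is the log2 fold change of libraries labelled OGDR against CTRL, with its SE, from 3 libraries per group; blue circles are the shCtrl line, orange squares the shAnxa2 line, and open symbols have an adjusted p of 0.05 or over. Adhesion-site genes lie left of 0 in shCtrl and right of 0 in shAnxa2, with Zyx at -1.38 and 0.80, while Marcks lies the other way at 1.18 and -1.05.

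The interaction is the OGD/R difference in shAnxa2 minus that in shCtrl. At an adjusted p under 0.05 it was called above 0 for 21 members and below 0 for 12, beside 34.9% and 35.1% of all genes. A second rule, an unadjusted p under 0.05 and a change over 1.5-fold in either direction, was met by 9 members for OGD/R in shCtrl and by 4 for OGD/R in shAnxa2, beside 20.6% and 12.6% of all genes. It was met by 19 members in the interaction, beside 42.2% of all genes. The shares of members past this rule, 20.0%, 8.89% and 42.2%, were near or below those of all genes.

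Both cytoplasmic actins fell in shCtrl after OGD/R by different amounts. Actb (ENSMUSG00000029580, mm39 chr5:142888870-142892509), encoding beta-actin, was at 7103, 7535 and 7137 CPM in shCtrl-CTRL and at 5180, 5752 and 5555 CPM in shCtrl-OGDR. It was at 6030, 5850 and 6128 CPM in shAnxa2-CTRL and at 6052, 6196 and 6924 CPM in shAnxa2-OGDR. The shCtrl groups did not overlap, with a log2 fold change of -0.40 ± 0.045 (SE, adjusted p = 3.82e-08), whereas the shAnxa2 groups did (0.09 ± 0.045, adjusted p = 0.0938). Actg1 (ENSMUSG00000062825, mm39 chr11:120236516-120239368), encoding gamma-actin, was at 217, 285 and 253 CPM in shCtrl-CTRL and at 118, 110 and 105 CPM in shCtrl-OGDR. It was at 121, 128 and 135 CPM in shAnxa2-CTRL and at 194, 191 and 233 CPM in shAnxa2-OGDR. In both lines the 2 groups of Actg1 were apart, with log2 fold changes of -1.18 ± 0.079 in shCtrl (adjusted p = 5.07e-12) and 0.69 ± 0.079 in shAnxa2 (adjusted p = 1.15e-07). The interaction was 0.49 ± 0.064 for Actb and 1.86 ± 0.11 for Actg1 (adjusted p = 2.59e-07 and 3.25e-13). Averaged over treatments the lines did not differ detectably in either actin, at -0.03 for Actb and -0.04 for Actg1 (adjusted p = 0.478 and 0.568). Of the 50-base windows of its transcripts, Actg1 shares 37.4% with other genes, led by Gm12715 and Gm8399. Actb shares 9.12%, led by Lrrc58 and Gm15725. Part of the counts of each actin may thus have been assigned to or from such genes.

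All 3 adhesion-site members fell after OGD/R in shCtrl, and all 3 were higher in the shAnxa2 libraries labelled OGDR. Zyxin (Zyx, ENSMUSG00000029860, mm39 chr6:42326564-42337147), which brings actin regulators to focal adhesions and stress fibers, was at 34.5, 44.1 and 36.9 CPM in shCtrl-CTRL and at 14.3, 14.9 and 15.4 CPM in shCtrl-OGDR. It was at 19.2, 18.0 and 20.9 CPM in shAnxa2-CTRL and at 31.9, 34.2 and 35.3 CPM in shAnxa2-OGDR. Zyx had the largest fall of any member in shCtrl, -1.38 ± 0.087 (adjusted p = 1.82e-12), and the largest rise in shAnxa2, 0.80 ± 0.087 (adjusted p = 4.15e-08). Vinculin (Vcl), which links talin to actin, changed by -0.89 ± 0.051 and 0.38 ± 0.051, and talin (Tln1), which binds integrin tails, by -0.32 ± 0.047 and 0.38 ± 0.047, on the log2 scale in shCtrl and shAnxa2 respectively. The interaction was above 0 for all 3, from 0.69 for Tln1 to 2.18 for Zyx.

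Every tested crosslinker and bundler fell in shCtrl. Alpha-actinin 1 (Actn1), which crosslinks stress fibers, changed by -0.78 ± 0.053 and filamin A (Flna), which joins filaments into networks and binds membrane receptors, by -0.55 ± 0.045. Smaller falls were seen for Lcp1 (L-plastin, -0.26), Pls3 (plastin 3, -0.17) and Actn4 (alpha-actinin 4, -0.14). In shAnxa2, Actn1 (0.57), Flna (0.37) and Actn4 (0.12) were called higher, and Lcp1 and Pls3 were not called, though without a filter on low counts Pls3 was lower (-0.16, adjusted p = 0.0134). Among the contractile genes, Myh9, the heavy chain of non-muscle myosin IIA, was at 1122, 1174 and 1171 CPM in shCtrl-CTRL, at 709, 697 and 757 CPM in shCtrl-OGDR, at 701, 712 and 724 CPM in shAnxa2-CTRL and at 973, 1043 and 1118 CPM in shAnxa2-OGDR. The middle pair of groups overlapped and both outer groups lay above them, with log2 fold changes of -0.68 ± 0.049 in shCtrl and 0.55 ± 0.049 in shAnxa2. Tropomyosin 3 (Tpm3), which coats and stabilises filaments, changed by -0.40 and 0.25. The tropomyosins Tpm1 (-0.14) and Tpm4 (-0.23) and the light chain Myl12a (-0.28) also fell in shCtrl, while the light chain Myl6 was called only in shAnxa2, at -0.41 (in shCtrl -0.08, adjusted p = 0.456). The difference between lines for Myl6, as the interaction, was -0.33 ± 0.13 (adjusted p = 0.0228). Several of these small calls depended on single libraries or on the processing. Pls3 in shCtrl was no longer called without shCtrl-CTRL replicate 1 or 3 or shCtrl-OGDR replicate 2 (-0.14, -0.12 and -0.11, adjusted p = 0.121, 0.180 and 0.208). Actn4 was not called in shCtrl without shCtrl-CTRL replicate 3 (-0.11, adjusted p = 0.0679), nor in shAnxa2 without replicate 2 or 3 of either shAnxa2 group (0.10 to 0.11, adjusted p = 0.0692 to 0.0838), with library totals alone (0.09, adjusted p = 0.0784) or without a filter (0.09, adjusted p = 0.179). Tpm1 in shCtrl lost its call without replicate 1 or 2 of either shCtrl group, shAnxa2-CTRL replicate 2 or shAnxa2-OGDR replicate 1 or 2 (-0.15 to -0.07, adjusted p = 0.0531 to 0.318), and also in DESeq2 (adjusted p = 0.0504), with library totals alone (adjusted p = 0.0578) and with a filter of 1 CPM (adjusted p = 0.0612). Tpm4 in shAnxa2, at -0.14, lost its call without shAnxa2-CTRL replicate 1 or 3 (-0.14 in each, adjusted p = 0.0683 and 0.0562) or shAnxa2-OGDR replicate 3 (-0.09, adjusted p = 0.165). The Myl6 interaction lost its call without shCtrl-CTRL replicate 3, shCtrl-OGDR replicate 2 or 3, shAnxa2-CTRL replicate 1 or shAnxa2-OGDR replicate 3 (-0.29 to -0.24, adjusted p = 0.0582 to 0.0944).

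Actin monomers are known to hold back a coactivator of serum response factor (SRF), which binds the CArG box in promoters of many cytoskeletal genes, and the promoters of the members were therefore searched for this motif on both strands. RefSeq promoters (GRCm38.p6, 250 bases before to 50 after the start) were matched for 42 of the 46 members, and Actb, Coro1b, Diaph1 and Marcks had no entry in the table. A CArG box was found for 4 of the 42 members (9.52%), beside 1.81% of the 27025 genes with a promoter and 1.47% of the tested genes among them. A match shows only that the letters are present. The 4 promoters are printed 5′ to 3′ because they carry the motif, with the CArG box in capitals.

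Actg1, chr11:120348446-120348745, minus strand: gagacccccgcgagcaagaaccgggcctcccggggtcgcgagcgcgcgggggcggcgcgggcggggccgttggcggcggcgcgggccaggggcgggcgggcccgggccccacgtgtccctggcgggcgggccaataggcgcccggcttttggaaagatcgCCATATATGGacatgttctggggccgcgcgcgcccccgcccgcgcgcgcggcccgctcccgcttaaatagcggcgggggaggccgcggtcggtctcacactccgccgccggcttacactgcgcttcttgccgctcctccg

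Vcl, chr14:20929148-20929447, plus strand: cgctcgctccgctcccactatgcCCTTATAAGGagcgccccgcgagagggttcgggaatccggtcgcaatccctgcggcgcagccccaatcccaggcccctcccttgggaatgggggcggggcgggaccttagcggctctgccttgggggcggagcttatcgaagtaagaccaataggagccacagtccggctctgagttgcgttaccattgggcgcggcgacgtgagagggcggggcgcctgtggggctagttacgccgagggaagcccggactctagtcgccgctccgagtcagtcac

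Myl6, chr10:128492960-128493259, minus strand: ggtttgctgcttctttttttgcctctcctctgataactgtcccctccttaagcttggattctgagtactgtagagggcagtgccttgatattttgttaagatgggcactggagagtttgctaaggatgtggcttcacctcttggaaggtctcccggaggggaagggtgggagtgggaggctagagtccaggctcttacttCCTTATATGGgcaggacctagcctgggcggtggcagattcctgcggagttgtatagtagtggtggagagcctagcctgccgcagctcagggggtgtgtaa

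Arpc4, chr6:113377863-113378162, plus strand: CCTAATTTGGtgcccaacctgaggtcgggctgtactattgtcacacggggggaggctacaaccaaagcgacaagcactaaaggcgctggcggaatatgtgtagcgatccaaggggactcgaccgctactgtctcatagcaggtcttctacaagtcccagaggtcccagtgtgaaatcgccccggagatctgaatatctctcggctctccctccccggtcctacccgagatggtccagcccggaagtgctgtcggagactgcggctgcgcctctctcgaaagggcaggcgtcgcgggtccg

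The first base of the box lay at -90 from the start in Actg1, at -50 in Myl6, at -227 in Vcl and at -250, the edge of the window, in Arpc4. Actg1, Vcl and Arpc4 were each lower in shCtrl after OGD/R and higher in the shAnxa2 libraries labelled OGDR (Arpc4 -0.34 ± 0.044 and 0.33 ± 0.045), and Myl6 was not. This pattern was called for 15 of the 45 members and for 2610 of the 11626 genes. Zyx, Actn1, Flna and Myh9 had it with no CArG box in the promoters searched. A link between the box and the pattern was not tested. Srf itself, no member, was at 125, 124 and 132 CPM in shCtrl-CTRL, at 63.8, 68.6 and 66.2 CPM in shCtrl-OGDR, at 61.1, 59.0 and 65.7 CPM in shAnxa2-CTRL and at 109, 106 and 118 CPM in shAnxa2-OGDR. Like Actg1 and Zyx, Srf was highest in shCtrl-CTRL and next in shAnxa2-OGDR. Its lower groups, shCtrl-OGDR and shAnxa2-CTRL, overlapped, whereas for Actg1 and Zyx shAnxa2-CTRL lay above shCtrl-OGDR. Srf had log2 fold changes of -0.94 ± 0.054 in shCtrl and 0.84 ± 0.055 in shAnxa2, and an interaction of 1.78 ± 0.077 (adjusted p = 8.24e-16). Of 10 tested genes of the list of SRF, its coactivators and further target genes, 1 rose and 4 fell in shCtrl, beside 32.4% and 31.0% of all genes, and Srf alone was called in shAnxa2, where 55.0% of all genes were. The motif ACGTG, the core of hypoxia response elements, searched on both strands, was present in the promoters of 8 of the 42 members (19.0%), beside 21.8% of all genes with a promoter and 29.7% of the tested genes among them.

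**Figure D2:**
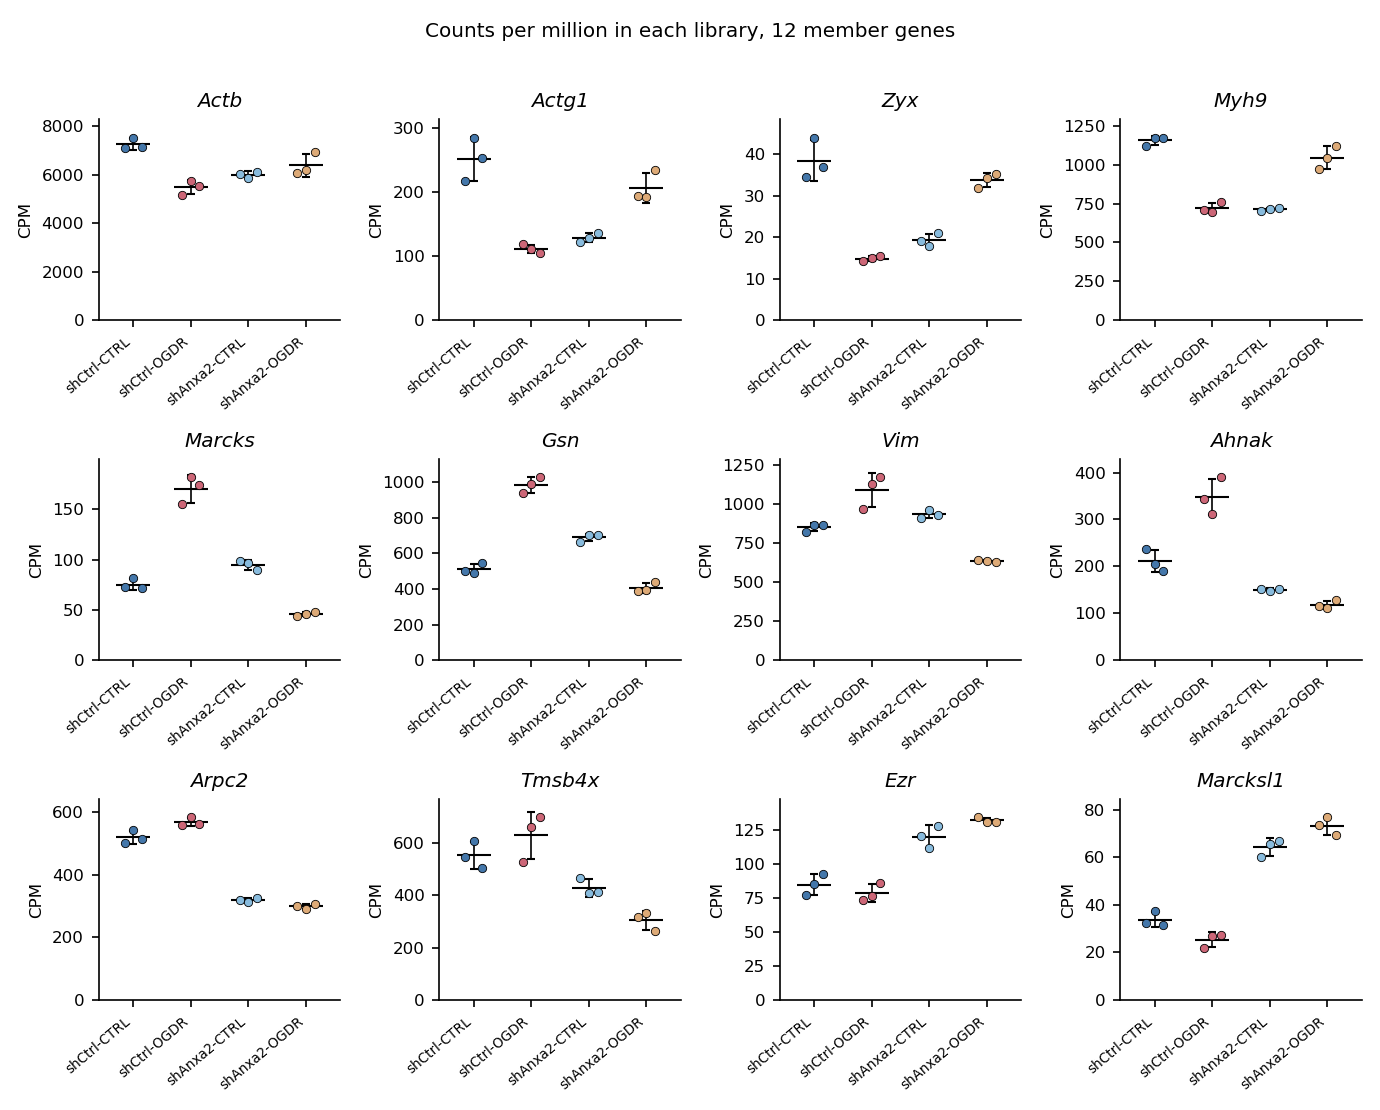
CPM of 12 member genes in each of the 12 libraries. Points are libraries, bars the mean and SD of the 3 libraries of a group, and each y axis starts at 0. Actg1, Zyx and Myh9 are highest in shCtrl-CTRL and shAnxa2-OGDR, Marcks, Gsn and Vim are highest in shCtrl-OGDR, Arpc2 and Ahnak are lower in all shAnxa2 libraries, and Ezr and Marcksl1 are higher in them.

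Of the monomer-binding and turnover genes, profilin (Pfn1) fell in shCtrl (-0.27 ± 0.059) and was higher in shAnxa2 (0.35 ± 0.059). Tmsb10 (ENSMUSG00000079523, mm39 chr6:72934330-72935731), encoding thymosin beta 10, was a minor transcript, at 2.17, 3.59 and 3.09 CPM in shCtrl-CTRL, at 4.22, 3.63 and 5.58 CPM in shCtrl-OGDR, at 7.73, 5.82 and 6.08 CPM in shAnxa2-CTRL and at 4.95, 4.45 and 4.22 CPM in shAnxa2-OGDR. The shCtrl groups were apart by a narrow margin, with log2 fold changes of 0.57 ± 0.19 in shCtrl (adjusted p = 0.0104) and -0.52 ± 0.17 in shAnxa2 (adjusted p = 0.0133). The first call was lost without shCtrl-CTRL replicate 1 (0.40, adjusted p = 0.0747) or shCtrl-OGDR replicate 3 (0.40, adjusted p = 0.0844), and the second without shAnxa2-CTRL replicate 1 (-0.39, adjusted p = 0.0877). Tmsb10 shares 27.0% of its windows with other genes. The abundant Tmsb4x, encoding the main monomer-sequestering peptide, was at 545, 606 and 505 CPM in shCtrl-CTRL, at 526, 661 and 697 CPM in shCtrl-OGDR, at 467, 407 and 411 CPM in shAnxa2-CTRL and at 316, 333 and 265 CPM in shAnxa2-OGDR. The 2 lines did not overlap for Tmsb4x, which was not called for OGD/R in shCtrl (0.19, adjusted p = 0.0657) and was lower in shAnxa2-OGDR than in shAnxa2-CTRL (-0.49 ± 0.088, adjusted p = 4.60e-05). In shCtrl, Tmsb4x was called higher without shCtrl-OGDR replicate 1 (0.31, adjusted p = 0.00261), shCtrl-CTRL replicate 2 (0.27, adjusted p = 0.0176) or shAnxa2-OGDR replicate 3 (0.19, adjusted p = 0.0322), or without a filter (0.18, adjusted p = 0.000963). Cofilin (Cfl1) was not called in shCtrl (-0.02, adjusted p = 0.780) and was slightly lower in shAnxa2-OGDR than in shAnxa2-CTRL (-0.16, adjusted p = 0.0251), a call lost without shAnxa2-CTRL replicate 1 (-0.10, adjusted p = 0.189) or shAnxa2-OGDR replicate 3 (-0.14, adjusted p = 0.0724).

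The membrane linkers did not move as 1 group. In shCtrl, OGD/R was followed by a rise of Marcks, Ahnak and Msn and a fall of Marcksl1 and Rdx, and Ezr was not called. Marcks (ENSMUSG00000069662, mm39 chr10:37009371-37014916), a protein kinase C substrate that crosslinks actin at the membrane, was at 72.5, 81.3 and 71.5 CPM in shCtrl-CTRL and at 155, 182 and 174 CPM in shCtrl-OGDR. It was at 98.8, 96.7 and 89.3 CPM in shAnxa2-CTRL and at 43.6, 45.7 and 47.7 CPM in shAnxa2-OGDR. None of these 4 groups overlapped, and the changes were the largest rise of a member in shCtrl, 1.18 ± 0.061 (adjusted p = 4.95e-14), and the largest fall in shAnxa2, -1.05 ± 0.065 (adjusted p = 4.81e-12). Its interaction, -2.23 ± 0.090, was the furthest below 0 of any member. Its relative Marcksl1 (ENSMUSG00000047945, mm39 chr4:129407374-129409778) went the other way, at 32.3, 37.2 and 31.5 CPM in shCtrl-CTRL, at 21.9, 26.9 and 27.3 CPM in shCtrl-OGDR, at 60.0, 65.6 and 66.9 CPM in shAnxa2-CTRL and at 73.5, 76.7 and 69.2 CPM in shAnxa2-OGDR. Marcksl1 fell in shCtrl by 0.41 ± 0.081 on the log2 scale (adjusted p = 0.000104). Its rise in shAnxa2, 0.19 ± 0.073 (adjusted p = 0.0328), lost its call when shAnxa2-CTRL replicate 1 (0.14, adjusted p = 0.151), shAnxa2-OGDR replicate 1 (0.19, adjusted p = 0.0687) or shAnxa2-OGDR replicate 2 (0.15, adjusted p = 0.155) was left out, and also with library totals alone (0.16, adjusted p = 0.0709).

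Ahnak (ENSMUSG00000069833, mm39 chr19:8966648-9054278), the scaffold that binds the complex of annexin A2 and S100a10, was at 236, 206 and 190 CPM in shCtrl-CTRL, at 343, 313 and 390 CPM in shCtrl-OGDR, at 151, 147 and 152 CPM in shAnxa2-CTRL and at 115, 111 and 127 CPM in shAnxa2-OGDR. All values of the shAnxa2 line were thus below all values of the shCtrl line. OGD/R changed Ahnak by 0.73 ± 0.072 in shCtrl (adjusted p = 4.70e-09) and by -0.35 ± 0.075 in shAnxa2 (adjusted p = 0.000307). The line difference was -0.49 ± 0.073 untreated and -1.57 ± 0.075 after OGD/R, and after OGD/R only Marcks among the members was lower, at -1.90.

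The 3 ERM genes, ezrin, radixin and moesin, encode closely related linkers between membrane proteins and actin. Moesin (Msn, ENSMUSG00000031207, mm39 chrX:95139648-95212158), the most abundant of them per length at 157 CPM per kilobase, was at 906, 932 and 919 CPM in shCtrl-CTRL, at 1022, 1038 and 1057 CPM in shCtrl-OGDR, at 1166, 1070 and 1084 CPM in shAnxa2-CTRL and at 942, 895 and 871 CPM in shAnxa2-OGDR. It rose by a log2 fold change of 0.18 ± 0.044 in shCtrl and was lower by -0.29 ± 0.044 in shAnxa2 (adjusted p = 0.00125 and 5.25e-06), with no overlap within either line. Ezrin (Ezr, ENSMUSG00000052397, mm39 chr17:7005440-7050183) was at 76.9, 84.9 and 92.1 CPM in shCtrl-CTRL, at 73.1, 76.5 and 86.0 CPM in shCtrl-OGDR, at 120, 112 and 128 CPM in shAnxa2-CTRL and at 134, 131 and 131 CPM in shAnxa2-OGDR. Its treatment groups overlapped in shCtrl (-0.11, adjusted p = 0.137) and were apart without a call in shAnxa2 (0.14, adjusted p = 0.0730), while the shAnxa2 line stood above the shCtrl line in every library. The call in shCtrl appeared without shCtrl-CTRL replicate 1 or shCtrl-OGDR replicate 3 (-0.18 in each, adjusted p = 0.0245 and 0.0264), and that in shAnxa2 without shAnxa2-CTRL replicate 3 (0.18, adjusted p = 0.0265) or shCtrl-CTRL replicate 1 (0.14, adjusted p = 0.0498). The Ezr interaction, 0.25 ± 0.091 (adjusted p = 0.0185), lost its call without shCtrl-CTRL replicate 3 (0.17, adjusted p = 0.105), shCtrl-OGDR replicate 1 (0.18, adjusted p = 0.0875) or shAnxa2-CTRL replicate 2 (0.20, adjusted p = 0.0643). Radixin (Rdx, ENSMUSG00000032050, mm39 chr9:51958473-52011763) was at 161, 218 and 189 CPM in shCtrl-CTRL, at 159, 159 and 164 CPM in shCtrl-OGDR, at 148, 135 and 129 CPM in shAnxa2-CTRL and at 147, 155 and 135 CPM in shAnxa2-OGDR. Its fall in shCtrl (-0.23, adjusted p = 0.00785) and its interaction (0.32, adjusted p = 0.00927) rested on shCtrl-CTRL replicate 2, the library with the highest value, without which they were -0.11 (adjusted p = 0.152) and 0.19 (adjusted p = 0.0634).

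The 7 tested subunits of the Arp2/3 complex, which nucleates branched filaments, changed little with OGD/R in shCtrl. Actr3, Arpc4 and Actr2 fell (-0.36, -0.34 and -0.25), Arpc2 rose by 0.13, and Arpc1b, Arpc3 and Arpc5 were not called. The largest effect in this complex was between the lines. Arpc2 (ENSMUSG00000006304, mm39 chr1:74275243-74307368), a subunit at the core of the complex, was at 501, 544 and 515 CPM in shCtrl-CTRL, at 560, 584 and 563 CPM in shCtrl-OGDR, at 321, 314 and 326 CPM in shAnxa2-CTRL and at 299, 292 and 307 CPM in shAnxa2-OGDR. The 2 lines were far apart in both treatments and the 2 treatments close within each line. The line difference was -0.70 ± 0.046 untreated and -0.93 ± 0.046 after OGD/R (adjusted p = 5.45e-12 and 1.57e-14). The rise of Arpc2 in shCtrl (adjusted p = 0.0161) lost its call without shCtrl-CTRL replicate 1 (0.10, adjusted p = 0.0984) or shCtrl-OGDR replicate 2 (0.11, adjusted p = 0.0740). Of the nucleation promoters, Was, which encodes the WASP protein of blood cells, fell in shCtrl (-0.45 ± 0.066) and was higher in shAnxa2 (0.31 ± 0.067), and Wasf2 (WAVE2) and Diaph1 (a formin) were not called in either line. Without shCtrl-CTRL replicate 1, Wasf2 was called lower in shCtrl (-0.21, adjusted p = 0.0124), as was Diaph1 without shCtrl-OGDR replicate 3 (-0.14, adjusted p = 0.0328).

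Among capping and severing genes, gelsolin stood alone. Gsn (ENSMUSG00000026879, mm39 chr2:35146392-35197904), which severs and caps filaments when calcium rises, was at 501, 491 and 544 CPM in shCtrl-CTRL, at 939, 990 and 1028 CPM in shCtrl-OGDR, at 666, 702 and 704 CPM in shAnxa2-CTRL and at 388, 393 and 440 CPM in shAnxa2-OGDR. No group overlapped another. The log2 fold changes were 0.94 ± 0.054 in shCtrl (adjusted p = 2.83e-13) and -0.76 ± 0.054 in shAnxa2 (adjusted p = 4.44e-11), and the interaction was -1.71 ± 0.076 (adjusted p = 1.42e-15). The capping proteins Capg, Capza1 and Capzb were not called in shCtrl and Capza2 fell by 0.12 on the log2 scale (adjusted p = 0.0451), a call lost without any shCtrl-CTRL library, shCtrl-OGDR replicate 1 or 3 or shAnxa2-OGDR replicate 2 (-0.13 to -0.09, adjusted p = 0.0592 to 0.195), with library totals alone (adjusted p = 0.0560) or with a filter of 1 CPM (adjusted p = 0.0572). In shAnxa2, Capza1 was lower by -0.21, and 64.5% of its windows are shared with other genes. The coronins, which regulate Arp2/3 branches, split: Coro1a (-0.35) and Coro1c (-0.34) fell in shCtrl and were higher in shAnxa2 (0.16 and 0.22), whereas Coro1b rose (0.81 ± 0.052) and was lower in shAnxa2 (-0.31 ± 0.053). The Coro1a call in shAnxa2 was lost without shAnxa2-CTRL replicate 1 (0.12, adjusted p = 0.116) or shAnxa2-OGDR replicate 3 (0.10, adjusted p = 0.140), or with library totals alone (0.13, adjusted p = 0.0511). Vimentin (Vim), the intermediate filament of mesenchymal and myeloid cells, was at 820, 862 and 868 CPM in shCtrl-CTRL, at 968, 1130 and 1170 CPM in shCtrl-OGDR, at 912, 959 and 929 CPM in shAnxa2-CTRL and at 639, 634 and 627 CPM in shAnxa2-OGDR. Vim followed the order of Gsn and not that of the actin bundle genes, with 0.36 ± 0.054 in shCtrl and -0.56 ± 0.054 in shAnxa2.

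Between the untreated lines, shAnxa2 had lower levels of 26 members and higher levels of 10, beside 29.7% and 29.5% of all genes tested, with a median of -0.20. After OGD/R, 12 members were lower and 17 higher in shAnxa2, beside 34.2% and 33.8% of all genes. The second rule was met by 8 members untreated and 12 after OGD/R, beside 16.1% and 26.6% of all genes. Members called in both treatments numbered 26, of which 17 (65.4%) changed sign between the treatments, beside 76.0% of the 5121 genes called in both. Lower in shAnxa2 in both were Tmsb4x, Ahnak, Arpc2, Arpc5, Capza1 and Actn4, and higher in both were Ezr, Marcksl1 and Capg. Of these, Actn4 after OGD/R lost its call without shCtrl-OGDR replicate 2 or 3 or shAnxa2-OGDR replicate 1 (-0.11 to -0.10, adjusted p = 0.0648 to 0.0856). The plot of the line difference in each treatment shows these genes at its lower left and upper right, with the same sign but not always the same size in both treatments.

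**Figure D3:**
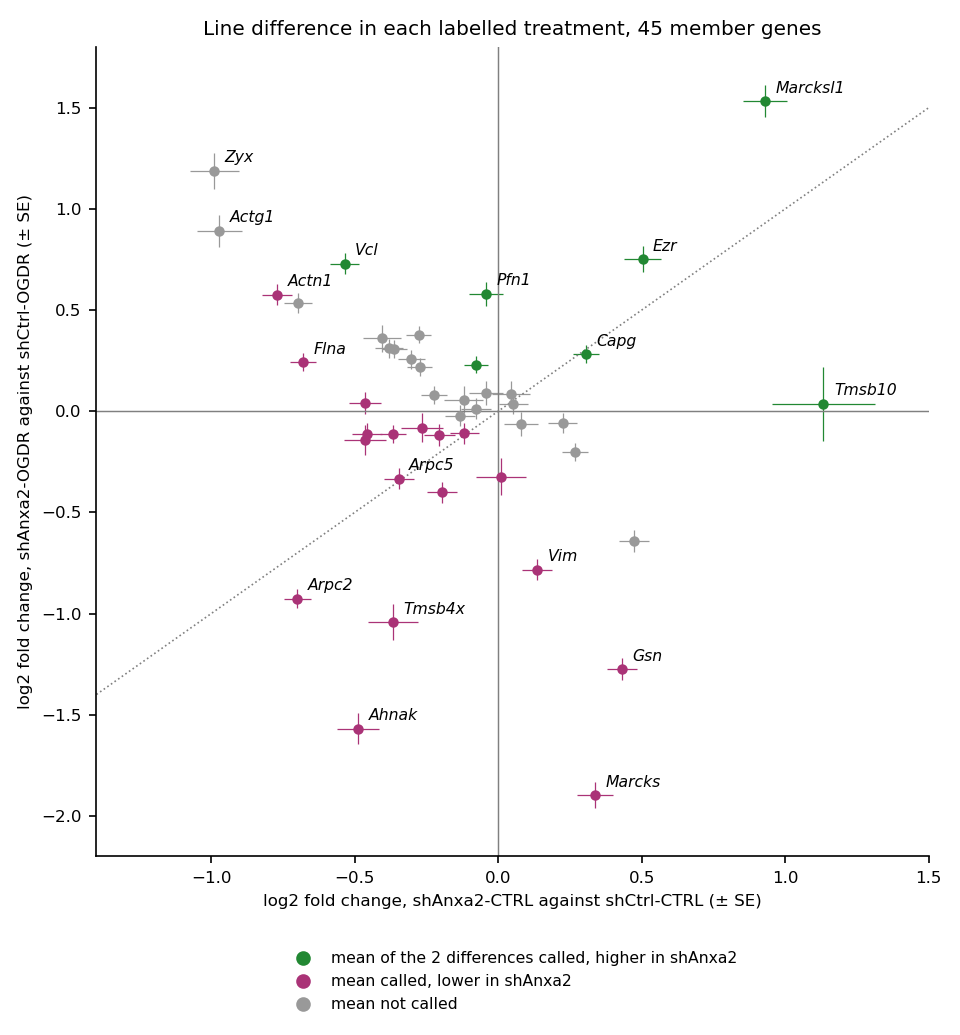
Line difference in the libraries labelled CTRL (x axis) and OGDR (y axis) for 45 members, as log2 fold change of shAnxa2 against shCtrl with its SE, 3 libraries per group. Green and purple points have a mean of the 2 differences called above or below 0, grey points have none, and the dotted line marks equal differences. Ahnak (-0.49 and -1.57), Arpc2 (-0.70 and -0.93) and Tmsb4x (-0.37 and -1.04) lie at the lower left, Marcksl1 (0.93 and 1.53) and Ezr (0.50 and 0.75) at the upper right, and Zyx (-0.99 and 1.19) and Marcks (0.34 and -1.90) in opposite corners.

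Averaged over both treatments, a measure that does not depend on how the treatment labels of a line are read, 18 members were lower and 7 higher in shAnxa2, beside 25.0% and 27.9% of all genes tested, and 6 members met the second rule, beside 7.10% of all genes. The members lower in shAnxa2 were led by Ahnak at -1.03 ± 0.052, Arpc2 at -0.81 ± 0.033, Marcks at -0.78 ± 0.045 and Tmsb4x at -0.70 ± 0.062 (adjusted p = 6.98e-14, 8.15e-16, 6.53e-13 and 1.33e-09). Those higher were led by Marcksl1 at 1.23 ± 0.055, Ezr at 0.63 ± 0.045 and Tmsb10 at 0.58 ± 0.13 (adjusted p = 6.28e-15, 4.46e-11 and 0.000473). By label, the mean for Tmsb10 combines 1.13 ± 0.18 untreated and 0.04 ± 0.18 after OGD/R (adjusted p = 0.870), and that for Marcks combines 0.34 and -1.90. For these genes the mean describes neither labelled treatment. Paired across the labels, shAnxa2-OGDR differed from shCtrl-CTRL by 0.61 for Tmsb10 and -0.72 for Marcks. For shAnxa2-CTRL against shCtrl-OGDR the values were 0.56 and -0.84. The mean of these 2 crossed comparisons equals the line mean by construction, and how the labels should be read was not tested. For the mean of both treatments, Zyx (0.10, adjusted p = 0.179) and the cytoplasmic actins were not called, though Zyx was without shCtrl-CTRL replicate 2 (0.15, adjusted p = 0.0285). Compared across the lines, shAnxa2-OGDR libraries differed from shCtrl-CTRL libraries in 31 members, 6 higher and 25 lower, beside 39.9% of all genes called in either direction, and shAnxa2-CTRL libraries differed from shCtrl-OGDR libraries in 25 members, 13 higher and 12 lower, beside 44.1% of all genes.

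Ratios of counts between related members within a library do not depend on library scaling, and 12 ratios were compared between the 6 shCtrl and the 6 shAnxa2 libraries by exact two-sided permutation tests, adjusted over the 12. The smallest p this design allows is 0.00216. Marcksl1 to Marcks was 0.448 in shCtrl-CTRL, 0.149 in shCtrl-OGDR, 0.676 in shAnxa2-CTRL and 1.60 in shAnxa2-OGDR, and every shAnxa2 library (0.607 to 1.69) lay above every shCtrl library (0.141 to 0.458). The lines differed by 2.01 on the log2 scale (exact permutation p = 0.00216, adjusted p = 0.00866). Tmsb10 to Tmsb4x differed by 1.31 and Ezr to Msn by 0.60, with the same p-values by the exact permutation test, and in both the shAnxa2 libraries lay above all shCtrl libraries. Rdx to Msn was lower by -0.33 (exact permutation p = 0.0390, adjusted p = 0.0779) and did not pass the adjustment. Coro1c to Coro1a (0.19, adjusted p = 0.0130) and Capza1 to Capza2 (-0.22, adjusted p = 0.0208) passed the exact permutation test with small differences. This test pools both treatments. Capza1 to Capza2 differed by -0.06 untreated and by -0.38 after OGD/R (exact permutation p = 0.4 and 0.1). Of the Capza1 windows, 64.5% are shared with other genes. Coro1c to Coro1a differed by 0.16 untreated and by 0.21 after OGD/R (exact permutation p = 0.1 in each).

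Other ratios followed the labelled treatment in opposite directions in the 2 lines. Actb to Actg1 was 29.0 in shCtrl-CTRL and 49.5 in shCtrl-OGDR, and 46.8 in shAnxa2-CTRL and 31.0 in shAnxa2-OGDR, with no overlap within a line (exact permutation p = 0.1 in each, the smallest possible). Actn1 to Actn4 was 0.585 and 0.374 in shCtrl, and 0.442 and 0.604 in shAnxa2 (exact permutation p = 0.1 in each). Averaged over treatments, the lines differed by 0.01 for Actb to Actg1 and by 0.14 for Actn1 to Actn4 (exact permutation, adjusted p = 0.959 and 0.592). The Actn1 to Actn4 difference was 0.22 without shCtrl-CTRL replicate 2 and 0.06 without shCtrl-OGDR replicate 3. The remaining ratios, Pls3 to Lcp1, Tpm1 to Tpm3, Tpm4 to Tpm3 and Cfl1 to Pfn1, differed between lines by -0.26 to -0.01 (exact permutation, adjusted p = 0.134 to 0.954).

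**Figure D4:**
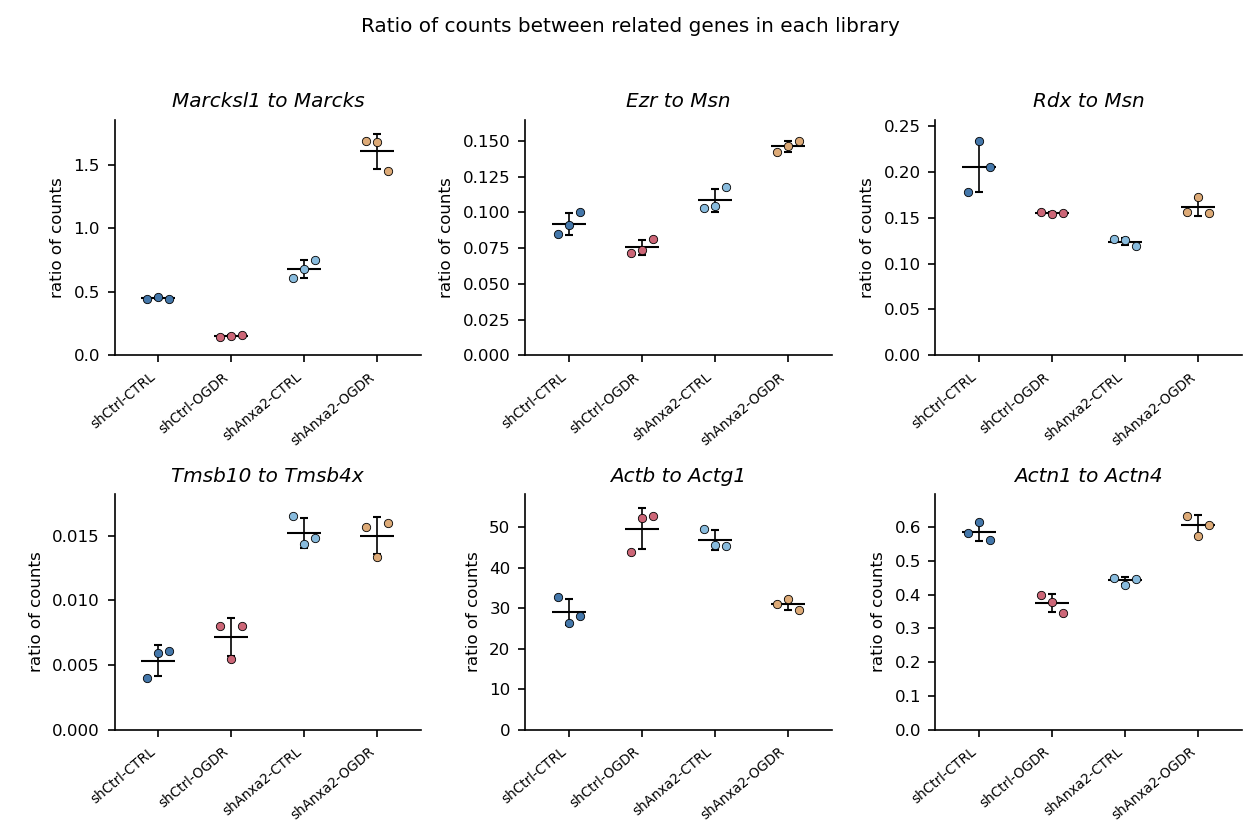
Ratio of counts between 6 pairs of related members in each library. Points are libraries, bars the mean and SD of the 3 libraries of a group, and each y axis starts at 0. Marcksl1 to Marcks is 0.141 to 0.458 in shCtrl libraries and 0.607 to 1.69 in shAnxa2 libraries, whereas Actb to Actg1 is higher in shCtrl-OGDR and shAnxa2-CTRL than in the other two groups.

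Actin regulators outside the member list were read from 6 further lists, 104 tested genes in all. In shCtrl, 29 rose and 33 fell after OGD/R with a median of -0.01, beside 32.4% and 31.0% of all genes. Averaged over treatments, 50 were lower and 23 higher in shAnxa2 with a median of -0.11, beside 25.0% and 27.9% of all genes. Among Arp2/3 activators, the WAVE complex gene Nckap1 had an interaction of 1.09 and its partner Cyfip2 one of -1.24, and averaged over treatments Nckap1 was higher in shAnxa2 (0.75) and Cyfip1 lower (-0.72). Ssh1, a phosphatase that activates cofilin, had an interaction of -1.45, and Elmo1, which activates Rac during engulfment, one of 1.02.

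Of 16 turnover, severing and capping genes, 5 rose and 6 fell in shCtrl (31.2% and 37.5%), near the 32.4% and 31.0% of all genes. Gmfg, a debranching factor of blood cells, had an interaction of -1.88 and the capping protein gene Eps8 one of -1.02. Averaged over treatments, Eps8 was lower in shAnxa2 (-0.54 ± 0.043), and the profilin gene Pfn2, at 0.357 to 1.04 CPM, was not called (-0.52, adjusted p = 0.116), though it was without shCtrl-CTRL replicate 3 (-0.67, adjusted p = 0.0431). Of 21 crosslinker, adhesion and cortical adaptor genes, 11 were lower and 3 higher in shAnxa2 on average, beside 25.0% and 27.9% of all genes. Evl, of the Ena/VASP family that elongates filaments, was at 2.83 to 4.07 CPM in shCtrl-CTRL, at 4.85 to 6.30 CPM in shCtrl-OGDR, at 1.12 to 1.27 CPM in shAnxa2-CTRL and at 0.755 to 1.02 CPM in shAnxa2-OGDR, a mean line difference of -2.10 ± 0.15 (adjusted p = 3.29e-11). Its relative Enah was lower by -1.06 ± 0.20, and Lsp1, an actin-binding protein of leukocytes, had an interaction of -1.16. Of 19 formin and myosin genes, 10 were lower and 3 higher in shAnxa2 on average, beside the same 25.0% and 27.9% of all genes. Myo6, a myosin that walks toward the minus end, was at 0 to 0.115 CPM in shCtrl and at 0.357 to 0.835 CPM in shAnxa2. Myo6, 1 of the 3 higher genes, passed the filter on low counts only through the shAnxa2 libraries, so its levels are given with no test. Myo1e was lower by -0.94 ± 0.040. The formins Daam1 and Fhod1 had interactions of -1.43 and 1.14. In the SRF list, Acta2 had an interaction of 0.36 (adjusted p = 0.127), and the mean line differences of Pdlim7 and Lima1 were 0.57 and -0.41. Of 9 tubulin genes, which form microtubules and not actin filaments, 1 rose and 5 fell in shCtrl, beside 32.4% and 31.0% of all genes. Interactions were 1.12 for Tubb6 and 0.73 for Tubb4b, and mean line differences -0.55 for Tuba1a and -0.47 for Tubb2a.

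Of the annexin A2 partners, S100a10 (ENSMUSG00000041959), the light chain of the complex, was at 62.5, 62.1 and 57.2 CPM in shCtrl-CTRL, at 39.0, 48.6 and 47.2 CPM in shCtrl-OGDR, at 53.2, 43.4 and 42.4 CPM in shAnxa2-CTRL and at 45.0, 44.2 and 40.2 CPM in shAnxa2-OGDR. It stood highest in shCtrl-CTRL, and the other 3 groups overlapped. It fell in shCtrl (-0.43 ± 0.081, adjusted p = 5.98e-05) and was not called in shAnxa2 (-0.10, adjusted p = 0.325). The S100a10 interaction, 0.33 ± 0.12 (adjusted p = 0.0145), lost its call without shCtrl-OGDR replicate 1 (0.22, adjusted p = 0.0802). Ahnak2, a relative of Ahnak, was at 25.8 to 32.9 CPM in shCtrl-CTRL, at 177 to 211 CPM in shCtrl-OGDR, at 86.6 to 102 CPM in shAnxa2-CTRL and at 24.3 to 26.3 CPM in shAnxa2-OGDR, an interaction of -4.66 ± 0.11 (adjusted p = 4.47e-20). S100a11 was lower in shAnxa2 on average (-0.64 ± 0.14, adjusted p = 0.00049).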

How the data were processed

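RNA of 2 BV2 lines was sequenced in 12 libraries, 3 in each of 4 groups, assigned by the sample titles, since a second label gives the genotype by treatment and conflicts with them. The authors deposited raw read counts per gene for 21834 genes. Per the submitters' processing notes, HISAT2 2.0.4 and mm39 were used, while the study's methods for hippocampal RNA name other tools. Whether counting used strand is not given in the sources used here. The 12 normalized columns of the same table were not used. No source used here names a batch. The study calls the 3 libraries of a group biological replicates, and p-values measure the spread between these libraries. Total counts per library were 19521877 to 27288843.

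The 46 members and the pathway, marker and motif lists were chosen with earlier results of these data known. Genes that reached 0.5 CPM in 3 or more libraries were fitted in 1 quasi-likelihood model of edgeR 4.0.16 (R 4.3.3, TMM), 1 coefficient per group, with Benjamini-Hochberg adjustment over all 11626 genes, and a call is an adjusted p under 0.05. The fit was tested on simulated data. The SE is the log2 fold change over the root of its F statistic. CPM values use TMM library sizes. Levels per kilobase use the joined length of all exons annotated for a gene in GENCODE for GRCm38.

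Values in every library are given for the 2 members with the largest log2 fold change in each direction and comparison, for the actins, ezrin, radixin, moesin, Ahnak, S100a10 and Anxa2, and, chosen after their values were seen, for Myh9, Vim, Tmsb4x and Srf. Of each pathway list, the 2 genes with the largest interaction and the 2 with the largest mean line difference are named. The counts and line differences of 1 of these lists are not reported here. Alternatives were median-of-ratios size factors, library totals alone, no filter, a filter of 1 CPM, a replicate block, DESeq2 1.42.0, voom in limma 3.58.1, and leaving out each library. Shared 50-base windows and motifs were counted in GENCODE transcripts and RefSeq promoters of GRCm38 (Python 3.11.15, numpy 2.4.6, pandas 2.3.3), and plots were drawn with matplotlib 3.10.9.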

Additional observations from a re-analysis of the deposited data

Results flagged for a closer look

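The OGD/R effect differed between the 2 lines, by the test of the interaction (OGD/R in shAnxa2 minus OGD/R in shCtrl, log2 scale, adjusted p under 0.05 in edgeR), for 33 of the 45 members (73.3%), 21 above 0 and 12 below 0, beside 70.0% of all genes, so the share called was near that of all genes. Of the called members, the interaction was 0.49 for Actb and 1.86 for Actg1. Among crosslinkers and bundlers it was 0.31 for Lcp1, 0.92 for Flna, 1.35 for Actn1 and 0.25 for Actn4. At adhesion sites it was 0.69 for Tln1, 1.26 for Vcl and 2.18 for Zyx. Among tropomyosins and myosin II genes it was 0.66 for Tpm3, 1.23 for Myh9 and -0.33 for Myl6. Among monomer-binding genes it was 0.62 for Pfn1, -0.68 for Tmsb4x and -1.10 for Tmsb10. Among the Arp2/3 complex, its activators and the coronins it was 0.67 for Arpc4, 0.30 for Actr2, 0.35 for Actr3, 0.76 for Was, 0.50 for Coro1a and 0.56 for Coro1c, and -0.23 for Arpc2, -0.28 for Arpc3 and -1.11 for Coro1b. Among the membrane linkers it was 0.25 for Ezr, 0.32 for Rdx, 0.60 for Marcksl1, -0.47 for Msn, -1.08 for Ahnak and -2.23 for Marcks. The other members below 0 were Gsn (-1.71), Capza1 (-0.21) and Vim (-0.92).

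Outside the members, the interaction was 1.78 for Srf, 1.09 for Nckap1, 1.02 for Elmo1, 0.29 for Rhob, 0.59 for Dock8, 1.14 for Fhod1, 1.12 for Tubb6, 0.73 for Tubb4b, 0.68 for Tubb2a and 0.33 for S100a10. It was -1.24 for Cyfip2, -1.45 for Ssh1, -1.88 for Gmfg, -1.02 for Eps8, -1.16 for Lsp1, -1.09 for Evl, -1.43 for Daam1, -0.36 for Myo1e, -0.56 for Tuba1a, -1.74 for Anxa2 and -4.66 for Ahnak2. Summed hypoxia targets changed with the same labels in opposite directions, at 3588 to 3854 CPM in shCtrl-CTRL and 4681 to 5215 CPM in shCtrl-OGDR but 4895 to 5143 CPM in shAnxa2-CTRL and 3359 to 3426 CPM in shAnxa2-OGDR. Their part in the interactions was not tested. The Rhob interaction lost its call without shCtrl-OGDR replicate 1 (0.21, adjusted p = 0.0508).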

How the results depend on the processing

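All counts of members and their medians stayed within 1.5 times, or within the spread between replicates, under 7 alternatives and with each of 12 libraries left out, and none of the log2 fold changes of the 74 genes followed turned direction with a call. Over these genes, 134 values lost and 83 gained a call under some alternative. Members higher and lower for OGD/R in shCtrl ranged from 6 to 9 and from 22 to 26 with a library left out, and for OGD/R in shAnxa2 from 13 to 16 and from 10 to 13. With library totals alone, OGD/R in shAnxa2 gave 12 higher and 14 lower, against 15 and 13, so neither direction prevails there. The line mean gave 6 higher and 22 lower with library totals alone, and 5 to 8 higher and 16 to 19 lower with a library left out. Between lines after OGD/R, members lower in shAnxa2 numbered 16 without a filter and 15 with a filter of 1 CPM, against 12. Same-numbered libraries of different groups did not deviate together strongly, with 1 of 18 correlations over 0.1 and 6 of 12 libraries closest to their own number. Of correlations between different numbers, 0 of 36 were over 0.1. This description shows no strong pairing by number and cannot exclude a weak one. With a replicate block, 8 members rose and 25 fell in shCtrl, 16 were higher and 13 lower in shAnxa2, and the line mean gave 7 higher and 20 lower. The block also gave a call for Ezr in shAnxa2 (0.14, adjusted p = 0.0385 in edgeR). No setting moved the median of all genes by more than 0.036 on the log2 scale. Calls of single members that rest on 1 library stand beside their values. Depth limits Fscn1, at 0 to 12 counts. Reads shared with other genes limit Capza1, Actg1, Tmsb10 and Actr3, with 64.5%, 37.4%, 27.0% and 26.3% of windows shared, and Vcl shares 25.1% with an overlapping gene. Arpc1b, Tpm3 and Myl12a share 24.3%, 23.2% and 21.1%, and the remaining members at most 18.3% (Cfl1).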

Other observations

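Over the 12 libraries, the genes outside the member list whose log2(CPM + 0.1) was most correlated with the mean of the members' standardized values were Med14 (Pearson r = 0.96), Pon2 (0.95), Slc7a8 (0.93), C5ar1 (0.92) and Midn (0.92). These correlations describe 12 libraries that fall into 4 groups, and they carry no test. The members' own correlations with this mean ranged from -0.71 (Coro1b) to 0.89 (Actr3), so the mean does not describe every member. The mean of the standardized values was 0.44 to 0.69 in shCtrl-CTRL, -0.56 to -0.04 in shCtrl-OGDR, -0.25 to -0.10 in shAnxa2-CTRL and -0.19 to -0.11 in shAnxa2-OGDR, so both shAnxa2 groups lay below shCtrl-CTRL. The 46 genes took 2.65% to 2.74% of the counts in shCtrl-CTRL, 2.28% to 2.44% in shCtrl-OGDR, 2.35% to 2.37% in shAnxa2-CTRL and 2.32% to 2.43% in shAnxa2-OGDR.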
